A study of Mus musculus with 16 samples.

Results

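The 31 genes described here encode semaphorins, the plexin receptors they bind and the neuropilins that serve as co-receptors. They were taken as a named list of 20 semaphorins, 9 plexins and 2 neuropilins and matched by symbol to the mouse mm10 Ensembl annotation. All 31 were found among the 54453 genes of the expression table and passed the filter on low values, which kept 15285 protein-coding genes. Total RNA was measured in 16 lines of immortalised mouse embryonic fibroblasts (MEFs), which are connective tissue cells grown from the embryo. MEF-1 and MEF-2 are parental lines from a pair of sibling C57BL/6J embryos at E13.5, male for MEF-1 and female for MEF-2 by the study's account, and no line carried an engineered allele or was given a drug. Both were immortalised by passaging through crisis, and 7 single cells of each were sorted and grown into clonal lines. Each line gave 1 library, so the groups were 1 MEF-1 parental line, 7 MEF-1 clonal lines, 1 MEF-2 parental line and 7 MEF-2 clonal lines. A clonal line holds the progeny of a single cell, and the clones of 1 parental line are not separate embryos. Any p-value below therefore compares the spread among clones, and embryo, sex and the history of each parental line cannot be told apart.

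Semaphorins steer moving cells and growing axons, mostly by collapsing the cytoskeleton on the side that touches them. Class 3 semaphorins are secreted and mostly need a neuropilin to reach a plexin, whereas class 4, 5 and 6 semaphorins are membrane proteins that bind plexins directly, and Sema7a is anchored by a lipid tail. Plexins carry a GTPase-activating domain inside the cell that acts on Ras-like GTPases. In embryonic connective tissue these genes are best known as cues for nerves, blood vessels and neural crest cells.

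Values are the deposited regularised log (rlog) values, which are on a log2 scale, scaled for library size and shrunken towards the average of each gene. A difference of 1 is therefore close to a doubling, and shrinkage makes differences of weakly expressed genes look smaller. Read depth is unknown. Coordinates and gene types follow GENCODE mouse release 21. The fibroblast label was checked on a marker list, of which 10 of 10 genes had an average above 0, from 4.74 for Thy1 to 20.88 for Col1a1. Between MEF-2 and MEF-1 clones, Dcn, Lum, Pdgfra and Col3a1 fell, with differences of -4.74, -3.68, -1.85 and -0.60 on the log2 scale, Thy1 rose by 2.59, and Col1a1, Col1a2, Fn1, Vim and Pdgfrb did not pass the test described below. Of 6 endothelial markers 5 had an average above 0, and no average exceeded 4.94. Of 6 neuronal markers 3 did, Snap25 was listed at 0 in every line, and Stmn2 spanned 5.18 to 7.25 in MEF-1 and 7.74 to 13.20 in MEF-2 clonal lines. Averages above 0 were also seen for 3 of 4 glial, 4 of 6 immune and 2 of 5 epithelial markers, with Sox10, Cd3e, Adgre1 and Krt5 below 0. The part of these genes in the results below was not tested.

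When levels were divided by exonic length, receptors headed the order. Plxnb2, a receptor for class 4 semaphorins, had the highest average over the 16 lines at 12.77 (log2 value per kilobase), followed by Nrp2 at 12.23, Sema3f at 11.61 and Plxna1 at 11.36. Sema3f is the class 3 ligand that prefers Nrp2. Sema3a, the axon repellent that acts through Nrp1, followed at 10.14. Plxnb1, Sema3c, Sema4c, Nrp1, Sema3b, Plxna3 and Sema3e lay within 9.82 and 9.16, and neighbours among these 7 genes were closer together than the SD of most of them among clonal lines. At the low end, Sema6d had 1.92, Plxnb3, a receptor for Sema5a, had -0.73, and Sema5b had -2.24. With the length of the longest transcript in place of the exonic length, Nrp2 at 13.05 and Plxnb2 at 13.02 changed places, and Nrp1 stood at 10.84 in place of 9.41. These per-length values are descriptions, since the same exonic length was taken for all transcripts of a gene. In bulk RNA, a lower level can come from fewer cells with the transcript or from less RNA per cell, and these cannot be told apart.

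**Figure D1:**
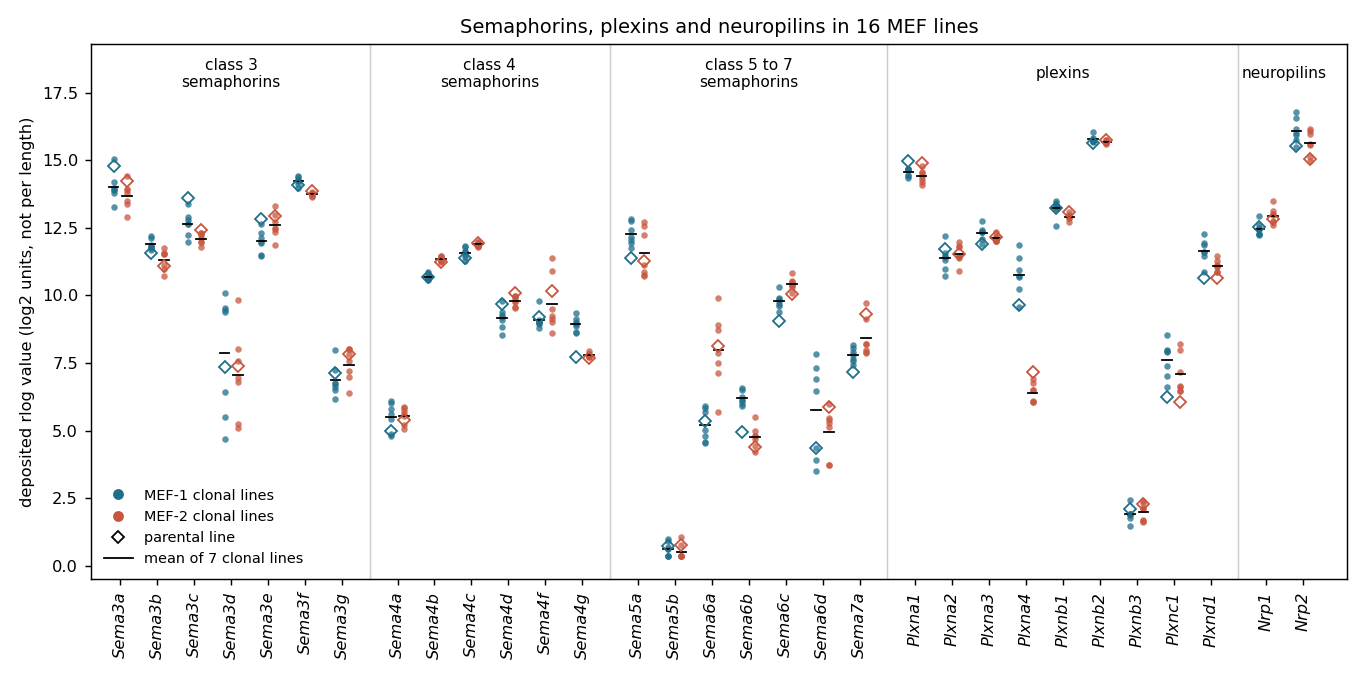
Deposited rlog values (log2 units, not divided by length) of the 31 genes in 16 MEF lines, with filled circles for clonal lines, open diamonds for the parental line and a bar at the mean of 7 clonal lines. Plxna4 has the widest gap, 9.56 to 11.88 in MEF-1 against 6.04 to 6.89 in MEF-2 clones, and Sema3d and Sema6d spread widest within MEF-1.

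The first comparison asked which of these genes differ between the clonal lines of the parental lines. With limma and Benjamini-Hochberg adjustment over 15285 genes, 7 of 31 members were higher in MEF-2 clonal lines (Sema3e, Sema4b, Sema4c, Sema4d, Sema6a, Sema6c and Nrp1), against 27.5% of all genes tested. Another 8 were lower (Sema3b, Sema3c, Sema3f, Sema4g, Sema6b, Plxna4, Plxnb1 and Plxnd1), against 28.6% of all genes. The called share of 48.4% was below that of all genes, 56.1%, so the family was not called more often than other genes. A call with a difference of 1 or more was made for 4 members (Plxna4, Sema6a, Sema6b and Sema4g), or 4 of 31 beside 12.9% of all genes. The 7 values of each set did not overlap for 5 members (Sema3f, Sema4b, Sema4g, Sema6b and Plxna4), beside 25.9% of all genes. The median difference was -0.14 for the members and -0.004 for all genes, and the median absolute difference was 0.56 against 0.30. Of the 15 called members, 14 had the same sign between the parental lines, the exception being Plxnd1, where the parental lines differed by 0.02. The 14 include Sema4g and Sema3e, whose parental lines were also close, with differences of -0.04 and 0.09. No share over all genes is given for this count, so nothing particular to the members is read from it.

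Plxna4, the plexin that pairs with Nrp1 to pass on Sema3a and also binds Sema6a and Sema6b, changed most. MEF-1 clonal lines had a lowest value of 9.56, a median of 10.70 and a highest value of 11.88, and MEF-2 clonal lines had 6.04, 6.49 and 6.89. The sets were separated by a gap wider than the range of either MEF-1 or MEF-2 clones. The difference of -4.37 (SE 0.29, n = 7 and 7) corresponded to a 20.7-fold lower level in MEF-2 (adjusted p = 1.46e-08, limma). The parental lines were at 9.65 and 7.17, on the same sides as their clones. Plxna4 lies at chr6:32144268-32588192 (mm10), and the median over genes of chromosome 6 moved by -0.07 between the sets.

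The class 6 semaphorins, which are membrane ligands of class A plexins, went in both directions. Sema6a had a lowest value of 4.54, a median of 5.02 and a highest of 5.92 in MEF-1 clonal lines, against 5.68, 7.88 and 9.90 in MEF-2. The ranges overlapped through MEF-2 clone 6 alone, and the difference was 2.77 (SE 0.52, 6.82-fold higher, adjusted p = 3.72e-04, limma). Sema6a is on chromosome 18 (chr18:47235598-47368870), whose median was 0.28 higher in MEF-2 clonal lines, and the difference was 2.49 after the chromosome median had been taken away (adjusted p = 5.90e-04). The parental lines held 5.37 and 8.14, a difference equal to that between their clones. Sema6b, at chr17:56123085-56140343, ran the other way, with a lowest value, median and highest value of 5.90, 6.14 and 6.58 in MEF-1 clonal lines and 4.20, 4.78 and 5.51 in MEF-2 (difference -1.44, SE 0.19, 2.72-fold lower, adjusted p = 1.43e-05, limma). The clonal sets did not overlap, but the MEF-1 parental line at 4.94 lay inside the range of MEF-2 clonal lines. Sema6c was higher in MEF-2 by 0.64 (SE 0.13, adjusted p = 8.96e-04, limma). Sema6d differed by -0.80 with an interval from -2.25 to 0.65, and by -0.45 without MEF-1 clone 7, so neither direction was shown.

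In classes 5 to 7 as a whole, 2 of 7 members rose, 1 fell and 4 did not pass. Their called share of 42.9% stood beside 56.1% of all genes. Sema5b, near the floor, had a difference of -0.10 (-0.19 to -0.03 with 1 clone left out) and did not pass. Of classes 5 to 7, Sema5a, a membrane semaphorin with thrombospondin repeats, had the highest undivided average. Its MEF-1 clonal lines spanned 11.77 to 12.84 with a median of 12.15, and MEF-2 clonal lines spanned 10.71 to 12.73 with a median of 11.13. The sets overlapped, and the difference of -0.70 had a 95% interval from -1.42 to 0.02 (adjusted p = 0.0886, limma). Sema7a, the lipid-anchored ligand of Plxnc1 and of integrins, was at 7.44 to 8.16 and at 7.87 to 9.70 (difference 0.63, adjusted p = 0.0566, limma). It passed the threshold when the chromosome median was taken away (0.0386) and without MEF-2 clones 3, 4 or 5 (0.0375 to 0.0462), and its difference was 0.41 without MEF-2 clone 7. Sema5a passed without MEF-2 clone 3 (0.0360) or 6 (0.0253).

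Class 4 semaphorins are membrane proteins known as ligands of class B plexins. Of 6 members 3 rose and 1 fell in MEF-2, and the median difference of the 6 was 0.45. The called share of 66.7% stood beside 56.1% of all genes, 27.5% higher and 28.6% lower, whose median difference was -0.004. Sema4c, a ligand of Plxnb2 and the class 4 member with the highest undivided average, had 11.28, 11.60 and 11.83 as lowest, median and highest value in MEF-1 clonal lines and 11.80, 11.90 and 11.99 in MEF-2. The sets touched at their edges, and the difference was 0.31 (SE 0.08, adjusted p = 0.00328, limma). A transcript on the other strand that overlaps Sema4c, D430040D24Rik, averaged 6.36. Sema4b was at 10.57 to 10.86 and at 11.24 to 11.44, with no overlap (difference 0.67, SE 0.06, adjusted p = 1.90e-07, limma). Sema4d, the ligand of Plxnb1, was higher by 0.64 (SE 0.16, adjusted p = 0.00351, limma). Sema4g had a lowest value, median and highest value of 8.59, 8.95 and 9.36 in MEF-1 clonal lines against 7.72, 7.76 and 7.94 in MEF-2, with no overlap (difference -1.15, SE 0.11, 2.22-fold lower, adjusted p = 9.29e-07, limma). It lies on chromosome 19 (chr19:44989101-45003397), whose median was 0.36 lower in MEF-2, and the difference was -0.79 on chromosome-centred values (adjusted p = 4.14e-05). The parental lines were alike at 7.72 and 7.68, so the MEF-1 parental line was at the level of the MEF-2 clones. Sema4a and Sema4f differed by 0.02 and 0.59 and did not pass, and the difference of Sema4f was 0.30 without MEF-2 clone 2 and 0.38 without clone 7.

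Among the secreted class 3 semaphorins, 3 of 7 fell, 1 rose and 3 did not pass, a called share of 57.1% that is close to the 56.1% of all genes. Sema3f had 13.98, 14.25 and 14.42 as lowest, median and highest value in MEF-1 clonal lines and 13.64, 13.74 and 13.82 in MEF-2. There was no overlap, and the difference was -0.50 (SE 0.06, adjusted p = 8.55e-06, limma). Sema3b had a difference of -0.57 (adjusted p = 0.00406, limma), and Sema3c, a cue for the cardiac outflow tract, had a difference of -0.55 (adjusted p = 0.0134, limma). Sema3c no longer passed on chromosome-centred values (adjusted p = 0.0514), where its difference was -0.47. Sema3e, which binds Plxnd1 without a neuropilin, had a difference of 0.60 (adjusted p = 0.0279, limma) and did not pass without MEF-1 clone 1 or 3 or MEF-2 clone 2 or 7 (adjusted p from 0.0573 to 0.0600). Sema3a, Sema3d and Sema3g had differences of -0.34, -0.80 and 0.57 and did not pass. With 1 clone left out, Sema3a ran from -0.46 to -0.17 (without MEF-1 clone 6) and Sema3d from -1.33 (without MEF-1 clone 4) to -0.43 (without MEF-1 clone 2), and Sema3g passed without MEF-1 clone 5 (0.0247) or MEF-2 clone 3 (0.0304).

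Of the 9 plexins, Plxna4, Plxnd1 and Plxnb1 fell, none rose and 6 did not pass, a called share of 33.3% beside 56.1% of all genes. Plxnb2, the plexin with the highest average, had 15.66, 15.72 and 16.06 as lowest, median and highest value in MEF-1 clonal lines and 15.59, 15.67 and 15.75 in MEF-2. The sets overlapped, and the 95% interval of the difference ran from -0.22 to 0.05. Plxnd1, the receptor of Sema3e, had a difference of -0.56 (SE 0.17, adjusted p = 0.0108, limma), and Plxnb1, the receptor of Sema4d, one of -0.32 (SE 0.11, adjusted p = 0.0275, limma). The call of Plxnb1 was lost on chromosome-centred values (0.0749) and without MEF-1 clone 3 (0.0566) or 6 (0.0575) or MEF-2 clone 3 (0.0533), with differences from -0.29 to -0.26. An antisense gene that overlaps its start, Gm7628, averaged 5.89 beside 13.08 for Plxnb1. Plxna1, Plxna2, Plxna3, Plxnb3 and Plxnc1 did not pass, with differences of -0.14, 0.18, -0.21, 0.09 and -0.55. With 1 clone left out, Plxna1 ran from -0.20 to -0.08, Plxna2 from 0.06 to 0.31 and Plxna3 from -0.28 to -0.13. Plxnb3 then ran from 0.02 to 0.18 and Plxnc1 from -0.73 to -0.40. Plxna3, on the X chromosome, did pass on chromosome-centred values (-0.27, adjusted p = 0.0315) and without MEF-1 clone 1 (0.0183).

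Neuropilins bind class 3 semaphorins and also members of the vascular endothelial growth factor family. Nrp2 had 15.48, 16.02 and 16.78 as lowest, median and highest value in MEF-1 clonal lines and 14.96, 15.60 and 16.16 in MEF-2. The sets overlapped, and the difference of -0.45 had an interval from -0.93 to 0.03 (adjusted p = 0.0982, limma, and 0.0451 without MEF-1 clone 7). Nrp1 was higher in MEF-2, at 12.61 to 13.50 against 12.22 to 12.92 (difference 0.49, SE 0.13, adjusted p = 0.00622, limma).

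**Figure D2:**
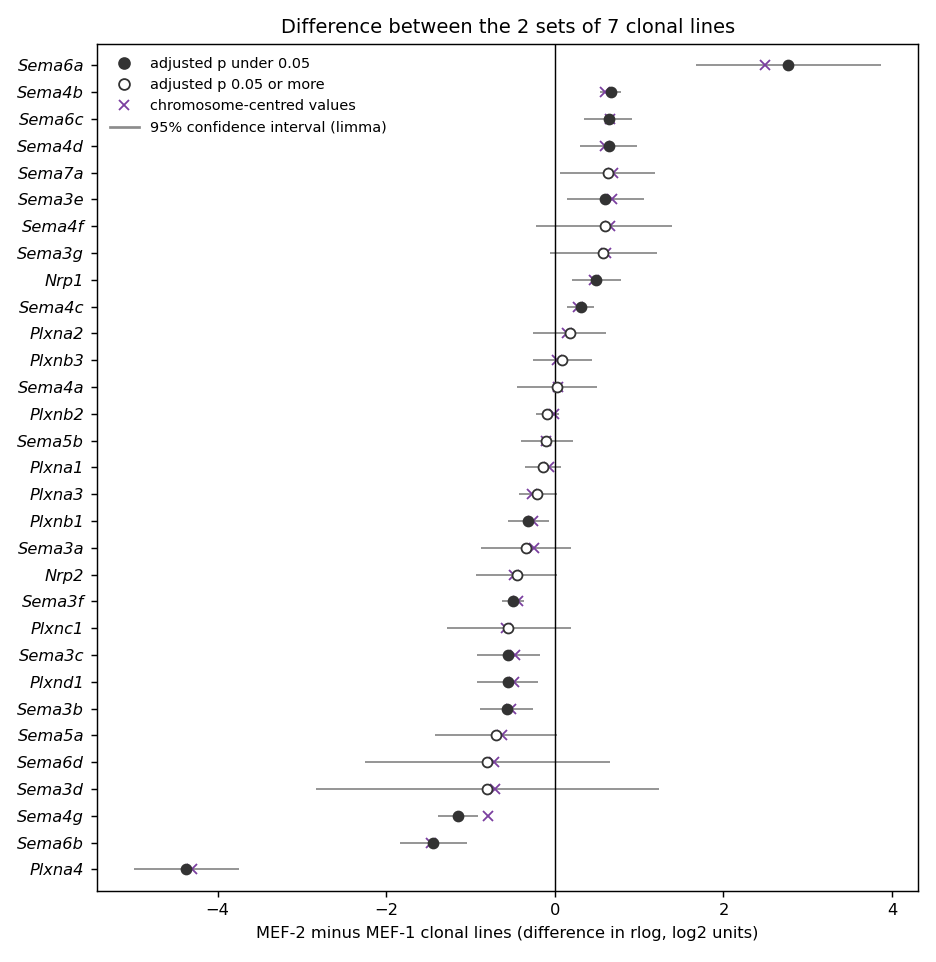
Difference in rlog (log2 units) for the 31 genes, as the mean of 7 MEF-2 clones minus that of 7 MEF-1 clones, with 95% confidence intervals from limma, filled circles for an adjusted p under 0.05 and crosses for chromosome-centred values. Plxna4 stands at -4.37 and Sema6a at 2.77, and Sema4g shows the widest gap between circle and cross, -1.15 against -0.79.

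Set side by side, ligands and their known receptors did not all share a direction. Sema3e was higher and Plxnd1 lower in MEF-2 clonal lines, by 0.60 and -0.56. Sema4d was higher and Plxnb1 lower, by 0.64 and -0.32. Sema6a was higher by 2.77, Plxna4 had -4.37, and Plxna2, its other receptor, had 0.18 and did not pass. Sema6b and Plxna4 were both lower. Sema3a had -0.34 and did not pass, with Nrp1 higher by 0.49 and Plxna4 at -4.37. Sema3f had -0.50 and Nrp2 -0.45, and Sema4c had 0.31 and Plxnb2 -0.09, where neither receptor passed. In 3 other pairs, Sema7a with Plxnc1 (0.63 and -0.55), Sema5a with Plxnb3 (-0.70 and 0.09) and Sema6d with Plxna1 (-0.80 and -0.14), no gene passed. These pairs come from textbook knowledge, and no test was made of a pair.

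The genes around the receptors were described from lists of pathway members. Of 21 co-receptors and neuropilin partners 19 were tested, and 6 were higher and 7 lower in MEF-2 clonal lines. Pgf, a growth factor that binds Nrp1, was higher by 2.53 (SE 0.22, and 1.94 after its chromosome 12 had been centred), and Chl1, an adhesion molecule that partners Nrp1, by 2.21 (SE 0.47). Vegfd had a difference of -1.29 (SE 0.12), and Cd72, the receptor of Sema4d on B cells, one of -0.96 (SE 0.22). The called share was 68.4%, beside 56.1% of all genes.

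Of 23 intracellular effectors 12 were higher and 5 lower, a called share of 73.9% beside 56.1% of all genes, of which 27.5% were higher and 28.6% lower. Crmp1 and Dpysl4 encode collapsin response mediator proteins, which relay Sema3a to microtubules, and they moved in opposite directions. Of the other family members in the list, Dpysl2 and Dpysl3 were higher by 0.66 and 1.94 (1.66 for Dpysl3 with chromosome 18 centred), and Dpysl5 had -0.55 and did not pass, so 3 of the 4 called members rose. Crmp1 spanned 5.94 to 7.06 in MEF-1 and 9.86 to 12.09 in MEF-2 clonal lines (difference 4.54, SE 0.30, adjusted p = 1.24e-08, limma). Dpysl4 spanned 5.05 to 9.00 and 3.24 to 3.45 (difference -4.22, SE 0.46, adjusted p = 2.59e-06, limma). Neither gene had a value in 1 set that reached into the other. Fes, a tyrosine kinase that binds class A plexins, was higher by 2.27 (SE 0.15), and Furin, the protease that cleaves class 3 semaphorins, had a difference of -0.79 (SE 0.08). Stmn2, a neuronal marker named above, was higher in MEF-2 clonal lines by 4.60 beside Crmp1, while Syt1, with an average of 6.06, differed by 0.79 and did not pass, Elavl3, with an average of 0.68, had a difference of -0.22 (adjusted p = 0.0335, limma), and Rbfox3 and Elavl4 averaged below 0.

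Of 19 genes of other guidance families 6 were higher and 5 lower, a called share of 57.9% that is close to the 56.1% of all genes. Unc5b, a netrin receptor, was higher in MEF-2, at 13.19 to 14.09 against 11.69 to 12.79, and Robo2, a Slit receptor, by 1.04. The ligands Slit3 and Slit1 had -1.65 and -1.61 (-1.24 for Slit1 with chromosome 19 centred). A call with a difference of 1 or more was made for 3 of 19 co-receptors, 4 of 23 effectors and 5 of 19 guidance genes, beside 12.9% of all genes. The clonal sets did not overlap for 6, 11 and 2 of them, beside 25.9%. These are descriptions, and nothing particular to a list is claimed.

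Among clones of 1 parental line the SD of the members was mostly above that of the typical gene, as a description without a test. The median SD over 7 clonal lines was 0.33 for the members against 0.20 for all genes in MEF-1, and 0.34 against 0.16 in MEF-2. An SD above that median of all genes was seen for 25 of 31 members among MEF-1 clones and for 24 among MEF-2 clones. The lowest and highest clone were 2 or more apart for 3 members in MEF-1 (Sema3d, Sema6d and Plxna4), beside 5.69% of all genes. In MEF-2 they were so for 5 members (Sema3d, Sema6a, Sema4f, Sema6d and Sema5a), beside 4.70% of all genes. At the other end, Sema4b had an SD of 0.10 in MEF-1 and 0.09 in MEF-2. There is 1 library per clone, so differences between clones have no replicate check, and the groups of clones named below were seen in the values and are not tested.

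In MEF-1, Sema3d and Sema6d were high and low in the same clones. Sema3d stood at 6.41, 10.09, 9.37, 4.69, 5.51, 9.46 and 9.55 in clones 1 to 7. Sema6d stood at 4.37, 7.30, 6.48, 3.49, 3.91, 6.90 and 7.83. In both genes clones 1, 4 and 5 were lowest, with a gap of 2.96 to the next clone for Sema3d and of 2.11 for Sema6d. The MEF-1 parental line was between the groups for Sema3d, at 7.36, and at the level of the low clones for Sema6d, at 4.36. Sema3d, a secreted semaphorin known from heart and vessel development, is on chromosome 5, and Sema6d, a ligand of Plxna1, is on chromosome 2.

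In MEF-2, clones 1, 3 and 6 had the highest Sema5a and Nrp2. Sema5a was at 12.23, 12.55 and 12.73 in these 3 clones and at 10.71 to 11.13 in the other 4. Nrp2 was at 16.08, 16.16 and 15.98 in the same clones and at 14.96 to 15.60 in the others. Plxna2 was highest there too, at 11.84, 11.97 and 11.79 against 10.91 to 11.47, and Plxnc1 was highest in clones 3 and 6 only, at 8.21 and 7.97. Sema5a is on chromosome 15, and Nrp2 and Plxna2 are on chromosome 1.

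Sema3d and Sema6d of the MEF-1 split and Sema5a and Nrp2 of the MEF-2 split are the members whose start regions are shown, because the study's other assay, methylation at CG dinucleotides, was made on the same lines and is not analysed here. Each line gives the 250 bases before a RefSeq start on the strand of the gene (plus in every case), 5′ to 3′, in build GRCm38.p6, with each CG in capitals. The positions are chr5:12382916-12383165 for Sema3d, chr2:124089719-124089968 and chr2:124653331-124653580 for both starts of Sema6d, chr15:32244563-32244812 for Sema5a and chr1:62703067-62703316 for Nrp2.
Sema3d: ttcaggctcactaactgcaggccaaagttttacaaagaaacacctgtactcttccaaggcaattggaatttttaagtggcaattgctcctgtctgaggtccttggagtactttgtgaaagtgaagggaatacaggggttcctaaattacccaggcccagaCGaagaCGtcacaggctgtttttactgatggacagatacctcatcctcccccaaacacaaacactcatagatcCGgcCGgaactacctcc
Sema6d, upstream start: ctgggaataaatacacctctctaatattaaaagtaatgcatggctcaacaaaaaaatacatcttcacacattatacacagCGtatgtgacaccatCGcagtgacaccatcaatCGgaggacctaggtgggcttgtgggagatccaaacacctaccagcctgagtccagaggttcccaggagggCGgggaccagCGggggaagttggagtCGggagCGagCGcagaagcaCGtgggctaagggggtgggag
Sema6d, downstream start: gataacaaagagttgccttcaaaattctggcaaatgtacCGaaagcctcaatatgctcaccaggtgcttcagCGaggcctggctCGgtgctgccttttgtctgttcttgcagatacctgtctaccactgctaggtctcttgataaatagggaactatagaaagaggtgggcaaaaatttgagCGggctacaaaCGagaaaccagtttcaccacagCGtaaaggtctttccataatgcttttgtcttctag
Sema5a: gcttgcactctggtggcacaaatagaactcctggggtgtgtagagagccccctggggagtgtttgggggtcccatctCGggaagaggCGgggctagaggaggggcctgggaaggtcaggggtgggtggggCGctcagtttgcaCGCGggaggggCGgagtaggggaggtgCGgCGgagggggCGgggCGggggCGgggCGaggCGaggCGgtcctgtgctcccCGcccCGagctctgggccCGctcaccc
Nrp2: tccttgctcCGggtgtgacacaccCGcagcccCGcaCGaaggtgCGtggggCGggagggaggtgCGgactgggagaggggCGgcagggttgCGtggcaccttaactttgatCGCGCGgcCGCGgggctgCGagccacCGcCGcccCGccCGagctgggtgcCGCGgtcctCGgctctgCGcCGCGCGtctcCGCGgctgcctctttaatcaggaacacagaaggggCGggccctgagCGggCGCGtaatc

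These windows hold 4 CG in Sema3d, 9 and 6 at the starts of Sema6d, 17 in Sema5a and 32 in Nrp2, where the letters CG read the same on both strands. Of 32851 entries of the same length, 62.2% hold at least as many as Sema3d, 40.3% and 50.4% as many as the starts of Sema6d, 23.5% as many as Sema5a and 4.58% as many as Nrp2, with a median of 6.00. Sema3d and Sema6d thus had windows with CG numbers near that median, and Sema5a and Nrp2 had windows above it. Entries were found for 26 of 31 members, where chromosome 18, and with it Sema6a, was left out of the search. The count of CG is a description, and which start each line used is not in the values per gene.

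MEF-2 clones 2 and 7 formed another group. Sema4f was at 11.38 and 10.91 in them and at 8.60 to 9.50 in the other 5 clones. Sema7a was at 9.13 and 9.70 against 7.87 to 8.21, and Sema3e at 12.99 and 13.32 against 11.88 to 12.70. Sema6a was also highest there, at 8.91 and 9.90, with clone 4 close at 8.73 and clone 6 lowest at 5.68. Sema5a and Nrp2 were lowest in these clones, at 10.71 and 10.77 and at 15.13 and 14.96. In MEF-1, the spread of Plxna4 ran from 9.56 in clone 7 to 11.88 in clone 1 with no wide gap.

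In MEF-1, the low clones of Sema3d and Sema6d were also those with the lowest median over chromosome 18. That median was -0.46, -0.49 and -0.42 in clones 1, 4 and 5 and 0.04 to 0.15 in the other 4, and Sema6a, on this chromosome, was at 4.79, 4.54 and 4.58 against 5.02 to 5.92. On chromosome-centred values the groups overlapped, with Sema6a at 5.25, 5.03 and 5.00 in clones 1, 4 and 5 against 4.95 to 5.78. Sema3d and Sema6d lie on other chromosomes, and the part of chromosome 18 in their levels was not tested. In MEF-2, clones 5 and 6 were lowest in both genes, at 5.08 and 5.25 for Sema3d and at 3.72 and 3.73 for Sema6d, while the chromosome 18 median was 0.12 to 0.16 in all 7 clones.

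**Figure D3:**
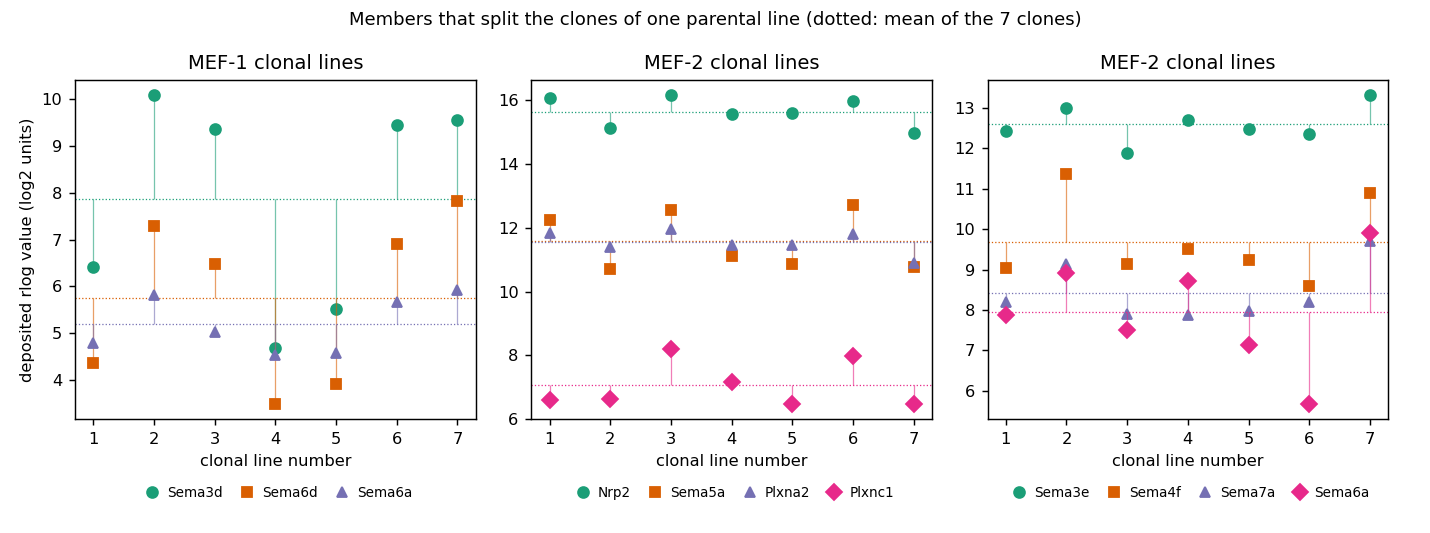
Deposited rlog values (log2 units) of selected members in clonal lines 1 to 7 of MEF-1 (left panel) and MEF-2 (middle and right panels), with a dotted line at the mean of the 7 clones. MEF-1 clones 1, 4 and 5 lie lowest in Sema3d and Sema6d, MEF-2 clones 1, 3 and 6 highest in Sema5a and Nrp2, and MEF-2 clones 2 and 7 highest in Sema4f and Sema7a.

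The last comparison asked whether clonal lines differ from the parental line they came from. In a limma fit with the line of origin as a term, no member of 31 passed an adjusted p of 0.05, beside 31 genes or 0.203% of all genes, and 7 members had an unadjusted p under 0.05, beside 18.1% of all genes. The smallest adjusted p among members was 0.135, for Plxna1. With 1 parental library per line, the fit assumes that parental lines vary as clonal lines do. The count over all genes was 89 without the MEF-1 parental line, 18 without MEF-1 clone 3, 137 without MEF-2 clone 7, 47 without MEF-2 clone 3 and 15 to 20 without MEF-2 clones 1, 2, 4, 5 or 6, and the count over members was 0 in each of these.

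All 14 clonal lines stood above their parental line for Plxnc1, Plxnd1, Sema4g and Sema6c, or 4 of 31 members beside 6.73% of all genes. Plxnc1, the receptor of Sema7a, was at 6.24 and 6.07 in the MEF-1 and MEF-2 parental lines and at 6.60 to 8.53 and 6.48 to 8.21 in their clones (difference 1.20, SE 0.47). Plxnd1, at 10.63 and 10.65 in the parental lines, was at 10.87 to 12.28 and 10.87 to 11.44 in the clones (difference 0.74, SE 0.24). Sema3c and Plxna1 were below the parental line in all 14, or 2 of 31 beside 4.85% of all genes, with differences of -0.63 (SE 0.25) and -0.46 (SE 0.14). The parental line lay inside the range of its 7 clones for 19 members in MEF-1 and for 22 in MEF-2. No share over all genes is given for these counts, so nothing particular to the members is read from them. Sema7a differed between the origins, with the MEF-1 parental line at 7.16 below all 7 of its clones and the MEF-2 parental line at 9.30 above 6 of its 7. Plxna4 was above its parental line in 6 of 7 MEF-1 clones and below it in all 7 MEF-2 clones, and these differences between origins were not tested.

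**Figure D4:**
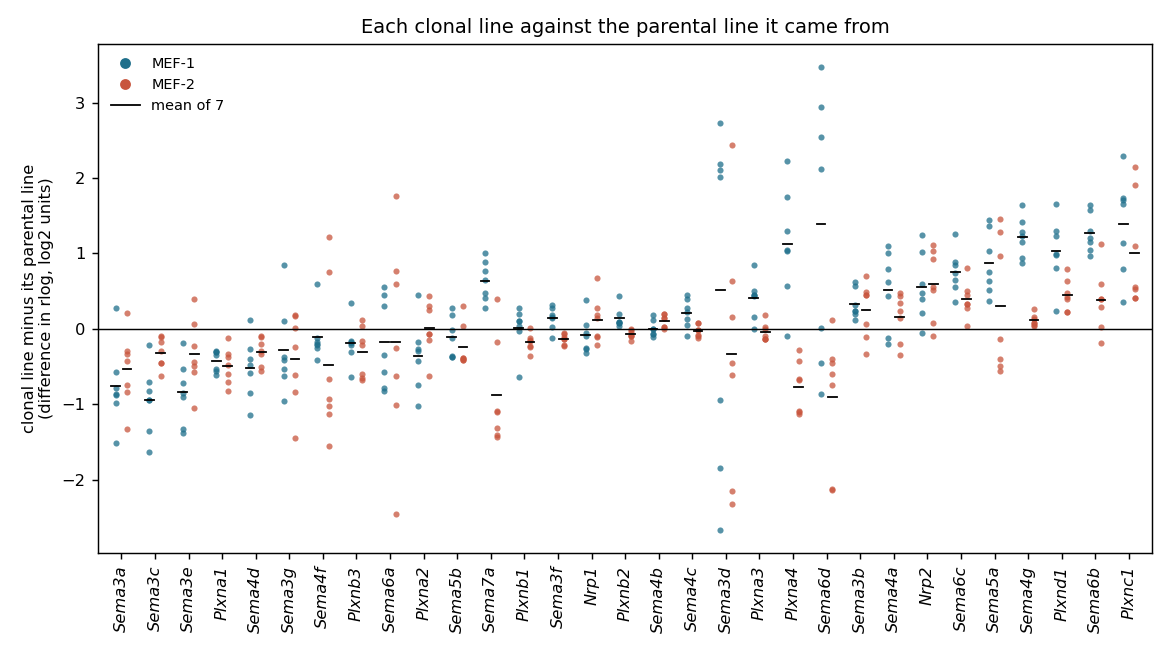
Each clonal line minus its parental line (difference in rlog, log2 units) for the 31 genes, ordered by the mean of both origins, with a bar at the mean of 7 clonal lines. All points of Plxnc1 and Plxnd1 lie above 0 and all points of Sema3c and Plxna1 below 0, and Sema3d and Sema6d spread to both sides.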

How the data were processed

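Total RNA from 16 MEF lines was depleted of ribosomal RNA and made into directional libraries, fragmented for times set by RNA integrity, which is not given per line. The authors trimmed reads with Trim Galore 0.6.0, ran Salmon 1.5.2 with mm10 transcripts and deposited 1 log2 value per gene and line, from the rlog transformation of DESeq2 1.24.0. How transcripts were joined into genes, and whether Salmon used strand, is not given in the sources used here. There are no counts, so depth and counting error are unknown. The 253 genes of 54453 that GENCODE release 21 lacks were left out.

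Protein-coding genes with an average above 0 (15285) were fitted with limma 3.58.1 (R 4.3.3) with a trended variance prior, and p-values were adjusted by Benjamini-Hochberg over all of them, with 0.05 as the threshold. MEF-2 was compared with MEF-1 clonal lines without a block, and clonal with parental lines with origin as a term. Levels per length are the average minus log2 of the exonic kilobases. For chromosome-centred values, each gene was set against its mean over 14 clonal lines, and the median of these deviations over a chromosome was taken away in each line. On simulated data for MEF-2 against MEF-1, 173 of 200 genes shifted by 1 and 10 unshifted genes were called. For clonal against parental lines these were 158 and 8. The noise was drawn for each gene on its own, and parental lines were given the spread of clonal lines. The simulations therefore do not cover shifts shared by many genes, or parental lines that vary otherwise than clones.

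All members were named, with full statistics for called members with a difference of 1 or more and for the member with the highest average in each class, and from each pathway list the 2 genes that moved furthest each way. One of the pathway lists is not reported here. The members and lists were chosen with earlier results of these data known. Clones picked out in the text, and the promoters shown, were chosen after their values were seen. Promoter sequences come from RefSeq on GRCm38.p6. Clones with the same number come from different cells of each origin. Alternatives were no trend, other filters, all annotated genes, other centring, parental lines counted with their clones, a replicate block, an exact permutation test and each line left out in turn. Python 3.11.15 made the tables.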

Additional observations from a re-analysis of the deposited data

Results flagged for a closer look

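In 3 of 62 sets of 7 clonal values, 1 line stood far from the other 6, where chance alone gives about 1 set in 20, or 3.10. Sema4f was at 9.81 in MEF-1 clone 7, with the nearest clone at 9.09. Plxnb1 was at 12.58 in MEF-1 clone 1, below the nearest at 13.19. Plxnb2 was at 16.06 in MEF-1 clone 5, above the nearest at 15.82, and the median over chromosome 15, where it lies, was 0.21 in that clone, with Plxnb2 at 15.85 on chromosome-centred values. Plxnb2 was also above its parental line in all 7 MEF-1 clones, by 0.14 on average, and at or below it in all 7 MEF-2 clones, by -0.07 on average, and the difference between origins was not tested.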

How the results depend on the processing

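Over the members, the values of MEF-2 minus MEF-1 kept their direction and their side of the threshold in 682 of the fits recomputed, passed it anew in 13 and lost it in 10. The sign changed in 6 fits of 1 member, Sema4a, which was not called in any fit (-0.01 with libraries centred on their medians, -0.10 to 0.12 with 1 line left out). Of the 15 calls, 12 held in all 24 settings, and Sema3c held in 23, Plxnb1 in 20 and Sema3e in 19 (adjusted p of 0.0522 by the exact permutation test). Sema7a passed in 6, by the exact permutation test among others (0.0478, with limits set by a smallest p of 5.83e-04) and with parental lines counted in (0.0152). Counts of members higher were 7 or 8 and of members lower 7 or 8 in every setting other than a left-out line. No member was called between clonal and parental lines in any setting, and the number of all genes called there ranged from 15 to 137 when 1 line was left out. Uncalled differences of clonal against parental lines changed sign in 29 fits of 12 members. With chromosome centring these were Sema3f at -0.03 and Plxnb2 at -0.02. With 1 line left out, values ran from -0.33 to 0.51 for Sema3d, -0.14 to 0.14 for Sema3f, -0.03 to 0.20 for Sema4c, -0.34 to 0.01 for Sema6a, -0.91 to 1.39 for Sema6d, -0.88 to 0.64 for Sema7a, -0.36 to 0.01 for Plxna2, -0.05 to 0.40 for Plxna3, -0.77 to 1.12 for Plxna4, -0.18 to 0.01 for Plxnb1, -0.07 to 0.14 for Plxnb2 and -0.08 to 0.12 for Nrp1. With the replicate block, 7 members were higher and 8 lower, as without it, and 8226 genes were called in place of 8573. Same-numbered clones correlated from -0.13 to 0.20 and 1 of 7 MEF-1 clones correlated best with its own number. Whether clones of the same number were handled together is not known and was not tested. The level per length moved by more than the spread for 14 of 31 members when the longest transcript gave the length. Causes were not tested. Depth is unknown, and with shrunken values a low level cannot be told from an absence of reads.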
